A study of Mus musculus with 2 samples.

Results

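Monocyte progenitors with few granule transcripts were taken from sorted mouse bone marrow by the transcripts in each cell. A cell was gated when the summed level of the monocyte genes Ly86, F13a1, Irf8 and Ms4a6c reached 5 UMIs per 10000 of the cell (CP10k) and was at least that of the neutrophil genes Cebpe, S100a8, S100a9 and Fcnb. Gated cells also had less than 5 CP10k of the erythroid gene Car1 and fewer than 3 UMIs of the lymphoid genes Dntt and Flt3. UMIs are barcodes counted once per RNA molecule captured. Of the gated cells of both libraries pooled, those below the median of Mpo, Elane, Prtn3 and Ctsg together (213.3 CP10k) were kept and are called low-granule cells, and the others high-granule cells. This gave 677 low-granule cells of 11416 filtered cells, 453 of 5635 in the wild-type library and 224 of 5781 in the knock-in library. The members were thus chosen by the measured levels of the gate and granule genes, which are given as a description only.

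The material was Lin- Kit+ bone marrow, which is marrow sorted for the Kit receptor and against markers of mature lineages. There was 1 library of WT genotype and 1 of the genotype labelled GATA-1 mutation Knockin, which the series title names 2RA. GATA-1 binds DNA and directs the development of red cells, megakaryocytes, eosinophils, basophils and mast cells. The stated aim was to compare marrow populations and gene regulation between the genotypes. Strain, age, treatment and the number of animals pooled are not given in the sources used here, so no difference below can be separated from a difference between individual mice or preparations. No allele or agent besides the GATA-1 mutation is named, and the labels name no transgene or Cre driver.

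Monocytes arise in marrow from progenitors that also give rise to neutrophils and dendritic cells. Irf8, a transcription factor, favours the monocyte and dendritic fates over the neutrophil fate, and Ly6c2, Ccr2 and Csf1r mark the monocyte line as it matures. Mpo, Elane, Prtn3 and Ctsg encode myeloperoxidase, neutrophil elastase, proteinase 3 and cathepsin G, the enzymes of primary granules. Their transcripts are abundant in the progenitors that monocytes share with neutrophils, while progenitors of the dendritic line carry few of them.

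Ratios below are log2 values of the knock-in level over the wild-type level unless another is named. Levels are UMIs summed over the cells of a library and scaled to a common total (CPM). Intervals are exact 95% intervals and cover counting error only. With 1 library per genotype no test across samples was possible, and none of the differences has a replicate check. The low-granule cells had a median of 11114 UMIs and 3003 genes in wild type and 8275 UMIs and 2538.5 genes in the knock-in, with sums of 5107273 and 1931216 UMIs. Over all filtered cells the medians were 9826 and 5449 UMIs. The libraries shared 5 cell barcodes, none of them in a low-granule cell.

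Gata1, the mutated gene (chromosome X, 7959260 to 7978071, minus strand, mm10), was nearly undetected in the low-granule cells. It had 11 UMIs in wild type and 6 in the knock-in, or 2.15 and 3.11 CPM, found in 2.21% and 2.68% of cells. In Car1-positive cells, which are erythroid progenitors, it stood at 140.2 and 139.5 CPM. A count of 3' tags carries no sign of a point mutation, so these values do not check the genotype labels. Gata2, a related factor of stem and mast cell progenitors, stood at 17.8 and 23.3 CPM in low-granule cells, a ratio of 0.39 (-0.16 to 0.92).

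The marker genes of monocyte progenitors were present in most of the cells of both libraries. Irf8, a gene of the gate, was found in 94.9% (wild type) and 89.7% (knock-in) of low-granule cells. It was found in 11.4% and 3.26% of Car1-positive cells, where it should be absent. The gate used Irf8 among its genes and left Car1-positive cells out, so these shares describe the selection. The median depth of those Car1-positive cells was 16221 and 8746 UMIs. With each cell thinned to 2000 UMIs the Irf8 shares were 60.9% and 63.0%, against 2.91% and 1.06%. Tyrobp, the signalling adaptor of myeloid receptors and the only marker that took no part in the gate, was found in 95.4% and 83.5% of low-granule cells and in 17.8% and 5.60% of Car1-positive cells. The level of Tyrobp was 663 CPM (wild type) and 724 CPM (knock-in), against 28.9 and 7.62 CPM in Car1-positive cells. Csf1r, the receptor for the monocyte growth factor M-CSF, was found in 45.9% and 36.6% of low-granule cells and at 65.0 and 63.7 CPM. The neutrophil genes of the gate were nearly absent: 386 of 453 and 206 of 224 cells held no UMI of any of the 4. The gate itself limited them to at most the level of the monocyte genes.

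Markers of other cell types were checked as lists, each as its summed level per cell. The median cell held 0 CP10k of 17 neutrophil markers, 8 eosinophil markers, 12 megakaryocyte markers and 14 macrophage and stroma markers in both libraries. It held 1.66 CP10k (wild type) and 1.58 CP10k (knock-in) of 20 erythroid markers. It held 2.84 and 3.18 CP10k of 20 B and T lymphoid markers, a list led by Ighm. It held 9.94 and 8.78 CP10k of 14 basophil and mast markers, a list led by Srgn, which myeloid cells express widely. Single cells lay far above these medians: the highest erythroid sum was 45.9 CP10k in wild type and 2973 CP10k in the knock-in, and the highest basophil and mast sum was 1295 and 90.1 CP10k.

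A few cells inside the gate therefore carried the genes of other lineages, and the kinds differed between the libraries. In wild type, 12 cells (2.65%, 1.38 to 4.58%) held 5 CP10k or more of the MHC class II genes Cd74, H2-Aa and H2-Eb1, which present antigen on dendritic and B cells. Summed over these 12 cells, Cd74 reached 18831 CPM, H2-Aa 5518 CPM, the dendritic regulator Id2 947 CPM and Xcr1, a receptor of cross-presenting dendritic cells, 166 CPM, while the B cell gene Cd79a was at 0 UMIs. In the knock-in, 19 cells (8.48%, 5.18 to 12.9%) held MHC class II genes, and all 19 also held 5 CP10k or more of the B lineage genes Cd79a, Igkc and Ly6d together. Summed over these 19 cells, Igkc reached 4898 CPM, Cd79a 2434 CPM, Ly6d 1811 CPM, Ebf1 1365 CPM, Ms4a1 1069 CPM and Pax5 356 CPM, while Id2 and Xcr1 were at 0 UMIs. No wild-type low-granule cell held a UMI of Cd79a, Igkc or Ly6d, which allows a share of cells with such UMIs of up to 0.811% for counting error only. The knock-in cells with B lineage genes were shallow, with a median of 1424 UMIs, against 5226 UMIs in the wild-type MHC class II cells.

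Basophil proteases reached that level in 5 wild-type cells and 1 knock-in cell, globin genes in 10 knock-in cells and Pf4, a platelet chemokine, in 2 knock-in cells. Some knock-in cells carried more than 1 of these kinds and are counted once in the total. In all, 17 wild-type cells (3.75%) and 28 knock-in cells (12.5%) carried such genes, leaving 436 and 196. Of the 28 knock-in cells, 25 lay among the cells with the fewest granule transcripts, as did 14 of the 17 wild-type cells. Several results that rest on these cells are given with and without them.

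**Figure D1:**
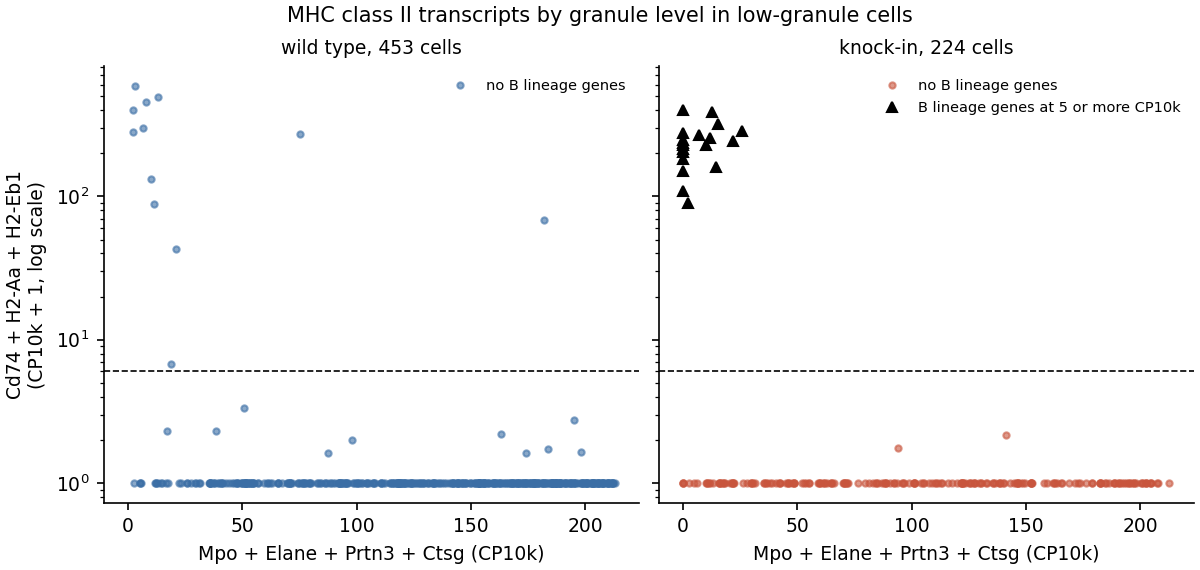
MHC class II transcripts (Cd74, H2-Aa and H2-Eb1 summed, in CP10k plus 1, log scale) against granule transcripts (CP10k) in the 453 wild-type and 224 knock-in low-granule cells, 1 point per cell. Points above the dashed line held 5 CP10k or more, 12 in wild type and 19 in the knock-in, and triangles mark the 19 knock-in cells that also held B lineage genes, all at or below 26.0 CP10k of granule transcripts.

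Low-granule cells made up a smaller share of the knock-in library. They were 8.04% (7.34 to 8.78%) of filtered wild-type cells and 3.87% (3.39 to 4.41%) of filtered knock-in cells, a log2 ratio of -1.05 (-1.29 to -0.82). High-granule cells stood at 8.93% (8.19 to 9.70%) and 3.03% (2.60 to 3.50%), a log2 ratio of -1.56 (-1.82 to -1.31). Shares of a sort depend on the other cells in it, and Car1-positive cells were 2287 in wild type and 2733 in the knock-in. Among cells that were not Car1-positive, low-granule cells were 13.5% (12.4 to 14.7%) and 7.35% (6.45 to 8.33%), a log2 ratio of -0.88 (-1.12 to -0.65). The size of the difference moved with the cut. It was -0.58 with every cell thinned to 2000 UMIs before gating, -0.69 when the third of the cells lowest in granule transcripts was taken and -1.34 with a monocyte gate of 10 CP10k.

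Within the gate the low-granule share was slightly larger in the knock-in when every gated cell was counted. Low-granule cells were 47.4% (44.2 to 50.6%) of 956 gated wild-type cells and 56.1% (51.1 to 61.1%) of 399 gated knock-in cells, a log2 ratio of 0.24 (0.01 to 0.48). The interval comes near 0, and the low-granule cells counted include 17 wild-type and 28 knock-in cells with genes of other lineages. This share is not given without those cells, so whether the difference stays without them is not shown here. The pooled median fixes the overall share, so only the difference between libraries was free. The cut fell in a continuous range and separates no distinct type: 143 wild-type and 53 knock-in cells lay within 10% of it. The member nearest the cut held 212.8 CP10k in either library, and the nearest cells outside held 213.3 and 213.6 CP10k.

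**Figure D2:**
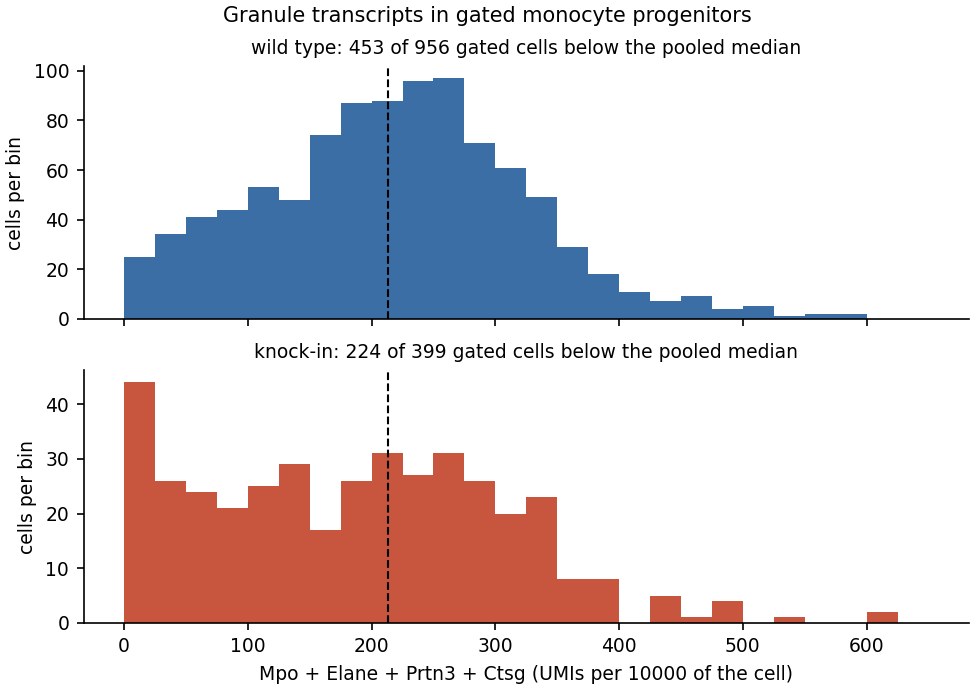
Histograms of Mpo, Elane, Prtn3 and Ctsg transcripts (summed UMIs per 10000 of the cell) in 956 gated wild-type and 399 gated knock-in cells, with the number of cells per bin on the vertical axis. The dashed line is the pooled median of 213.3, below which lie 453 wild-type and 224 knock-in cells, and the vertical scales differ between the panels.

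Granule transcripts were scarcer in the knock-in members, as a description of the values that chose them. The median low-granule cell held 142 CP10k of the 4 genes in wild type and 95.9 CP10k in the knock-in, with quartiles of 83.2 and 181 against 37.8 and 149. Mpo, the peroxidase, stood at 4927 and 4102 CPM, and Prtn3 at 4784 and 4238 CPM. Elane stood at 2046 and 1491 CPM, against 9224 and 8624 CPM in high-granule cells. Ctsg stood at 1936 and 2067 CPM. Without the cells that carried genes of other lineages, the median cell held 144.4 CP10k (wild type) and 109.5 CP10k (knock-in).

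Promoters of these enzymes are shown because the 4 genes rank the cells. The 250 bases before the RefSeq start of each gene (GRCm38.p6) were searched on both strands for 6 short motifs. GAGGAAGT, a sequence bound by the myeloid factor PU.1 (gene Spi1), was found before Mpo, Elane and Prtn3 but not Ctsg, and in 2.44% of all 32851 RefSeq promoters. None of the 4 monocyte genes of the gate had it. The GATA elements AGATAA and TGATAA, found in 9.99% and 7.94% of all promoters, and the composite element of PU.1 and IRF factors (GGAA and GAAA apart by 2 bases, in 2.30%) were in none of these 8 promoters. The other motifs were the interferon response and kappa B elements described with the MHC genes. The capitals mark the match, on the strand of each gene, within 30 bases.
Mpo (chr11:87793549-87793578, plus strand): gtggagagagaGAGGAAGTtgcctttgtcc
Elane (chr10:79886216-79886245, plus strand): cgtgtcccaggGAGGAAGTagggctgtggc
Prtn3 (chr10:79879561-79879590, plus strand): caaactggaagGAGGAAGTgggacccacag
The match began 224 bases before the RefSeq start in Mpo, 85 in Elane and 95 in Prtn3. GENCODE places an annotated exon near each of these matches, and that of Prtn3 lies inside the gene's GENCODE span (79874476 to 79883174). The same 8 letters are a match of sequence only. Spi1 itself stood at 260 CPM (wild type) and 291 CPM (knock-in), a ratio of 0.16 (0.02 to 0.30).

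The low-granule cells varied along this scale, which was divided into 4 bands of equal cell number over both libraries. Knock-in cells lay more in the lowest band. Bands 1 to 4, from fewest to most granule transcripts, held 86, 112, 123 and 132 wild-type cells and 83, 57, 46 and 38 knock-in cells. The lowest band was also the shallowest, with a median of 6915 and 4618 UMIs against 11550.5 and 11331 UMIs in the highest.

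Several genes that the rule did not use followed the bands in both libraries. Ly6c2, the surface antigen of classical monocytes, stood at 167, 430, 817 and 1061 CPM from band 1 to band 4 in wild type. In the knock-in it stood at 26.7, 256, 690 and 980 CPM, lower in every band. Ms4a3, a gene of committed granulocyte and monocyte progenitors, stood at 42.1, 87.6, 297 and 461 CPM in wild type and at 13.4, 65.5, 285 and 441 CPM in the knock-in. Sox4, a factor of immature progenitors, ran the other way, at 518, 322, 226 and 173 CPM in wild type and 633, 389, 272 and 305 CPM in the knock-in. Cd34, a surface antigen of early progenitors, stood at 342, 301, 233 and 216 CPM in wild type and 336, 367, 278 and 289 CPM in the knock-in. The cells with fewest granule transcripts thus held the most Sox4 and the least Ly6c2 in either library. These levels count the cells with genes of other lineages, most of which lay in band 1.

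Of the monocyte genes, Irf8 was highest in band 1, at 778 CPM (wild type) and 673 CPM (knock-in), and stood between 441 and 565 CPM in the other bands. F13a1, a monocyte transglutaminase, was lowest in band 1, at 219 and 123 CPM, and stood between 401 and 510 CPM elsewhere. Cd74 stood at 1532 and 1170 CPM in band 1 and at 83.2 CPM or less in every other band of either library. Of the cells with MHC class II genes, 10 of the 12 in wild type and all 19 in the knock-in lay in band 1. Markers of cell division were present in every band. The summed level of 30 S phase genes was between 2856.5 and 3742.6 CPM over the bands of both libraries, and that of 29 G2 and M phase genes between 3348 and 5562 CPM.

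**Figure D3:**
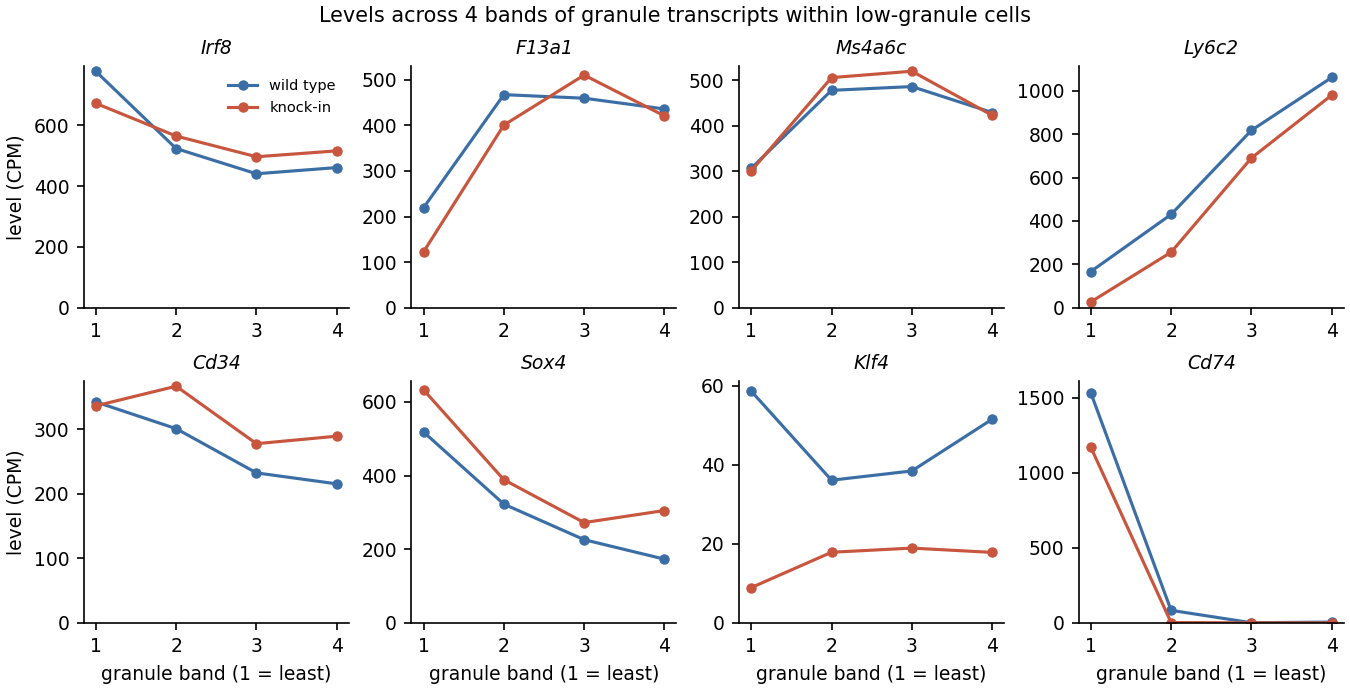
Levels of 8 genes (CPM, vertical axes from 0 with their own scale) in 4 bands of granule transcripts within the low-granule cells, 1 line per library and no error bars, since each point is 1 sum of UMIs. Ly6c2 climbs from 167 to 1061 CPM in wild type and from 26.7 to 980 CPM in the knock-in, while Sox4 and Cd34 are highest in bands 1 and 2 and Cd74 is found mostly in band 1.

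Low-granule cells were next set against the high-granule cells of the same library. Of 6394 genes outside the gate with at least 50 UMIs in each library, 47 were at least 2-fold higher in low-granule cells of both libraries, or 0.735%, and 22 were at least 2-fold lower in both, or 0.344%. These cells were split by granule level, so the differences describe the split and are not a test of it. Without the cells of other lineages the counts were 35 and 21. Scaling by TMM, a trimmed mean of gene ratios, lowered all low over high ratios by 0.12 in wild type and 0.08 in the knock-in, and gave 34 higher and 32 lower. The higher genes were thus 68.1% of the calls, or 51.5% under TMM.

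Stem and progenitor genes were among those more abundant in the low-granule cells. Adgrg1, an adhesion receptor of stem cells, stood at 75.4 CPM in low-granule and 27.3 CPM in high-granule wild-type cells, and at 57.5 and 15.9 CPM in the knock-in, ratios of 1.47 (1.20 to 1.74) and 1.86 (1.26 to 2.49) for low over high. Sox4 stood at 273 against 134 CPM and at 394 against 179.5 CPM. Angpt1, which encodes a ligand of the Tie2 receptor, had low over high ratios of 2.71 and 1.63, and Egfl7, a secreted factor of vessels and early progenitors, of 1.01 and 1.79. Of 15 stem and early progenitor genes tested in this comparison, 5 were 2-fold higher in both libraries and 1, Nkg7, was lower, and the median low over high ratio was 0.79 and 0.93. Over all genes tested these medians were 0.09 and 0.05, and 0.735% were 2-fold higher and 0.344% lower in both libraries.

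Other genes with the widest low over high ratios have various roles. Of 5 dendritic cell genes tested in this comparison, 2 were 2-fold higher in both libraries, Tcf4 and Runx2, and none was lower. Over all genes tested 0.735% were higher and 0.344% lower. Flt3 is also on the dendritic list but was left out of this count as a gene of the gate. It stood at 33.7 against 3.26 CPM in wild type and at 41.9 against 3.71 CPM in the knock-in. Its low over high ratios were 3.37 and 3.50, and it was found in 144 wild-type and 64 knock-in low-granule cells. The gate held Dntt and Flt3 together below 3 UMIs in every cell of either class. Satb1, a chromatin organiser of lymphoid progenitors, had low over high ratios of 1.61 (1.23 to 2.01) in wild type and 1.54 (0.98 to 2.13) in the knock-in. Tcf4, a factor of plasmacytoid dendritic cells, stood at 74.2 against 36.3 CPM and at 101 against 46.6 CPM. Lsp1, a leukocyte actin-binding protein, had ratios of 1.78 and 1.40, and Marcksl1, a substrate of protein kinase C, of 1.71 and 1.44. Ctla2a, a cysteine protease inhibitor, had ratios of 1.82 and 2.66, Ifitm1, an interferon-induced membrane protein, of 1.47 and 1.34, and Ptprcap, a protein bound to CD45, of 1.06 and 1.40. With the cells of other lineages left out, Satb1 kept ratios of 1.62 and 1.46 and Tcf4 of 1.03 and 1.07, while Lsp1 stood at 1.37 and 1.35.

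MHC class II genes had the widest gap of those named, and it rested on few cells. Cd74, the invariant chain, had 1142 UMIs in low-granule against 5 in high-granule wild-type cells, and 526 against 0 in the knock-in. H2-Aa had 335 against 4 UMIs and 113 against 0. Of the 1142 wild-type UMIs of Cd74, 1133 lay in the 12 cells with MHC class II genes, and 525 of the 526 knock-in UMIs lay in the 19 cells with B lineage genes. Without those cells 9 and 1 UMIs of Cd74 were left in the low-granule cells. Cd74 and H2-Aa were among the genes that picked those cells, so this loss follows from the choice.

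The genes with the widest gaps in the other direction also had various roles. Ms4a3 stood at 259 against 770 CPM in wild type and 201 against 815 CPM in the knock-in, low over high ratios of -1.57 (-1.66 to -1.48) and -2.02 (-2.19 to -1.86). Prss57, a serine protease of granules, had ratios of -1.36 and -2.09. Hp, haptoglobin, stood at 181 against 411 CPM and at 149 against 387 CPM. Nkg7, a granule membrane protein, had ratios of -1.70 and -1.56, Trem3, a myeloid receptor, of -1.57 and -1.98, and Rgcc, a regulator of the cell cycle, of -1.72 and -1.79. Dstn, an actin-severing protein, stood at 137 against 342 CPM and 96.8 against 309 CPM.

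Of 16 metallothioneins, glutathione transferases and related detoxification enzymes tested, 4 were 2-fold lower in low-granule cells of both libraries and none was 2-fold higher, beside 0.344% and 0.735% of all genes tested. Their median low over high ratio was -0.18 and -0.15. Mt1, a metal-binding protein, had low over high ratios of -1.22 and -1.32. The transferases Gstm1 and Mgst1 had ratios of -1.30 and -1.13 in wild type and of -2.15 and -1.80 in the knock-in, and Mgst2 was the fourth. Cat, catalase, lay on the other side with ratios of 0.38 and 0.33. Ratios without the cells of other lineages were -1.29 and -2.14 for Gstm1 and -1.20 and -1.33 for Mt1.

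**Figure D4:**
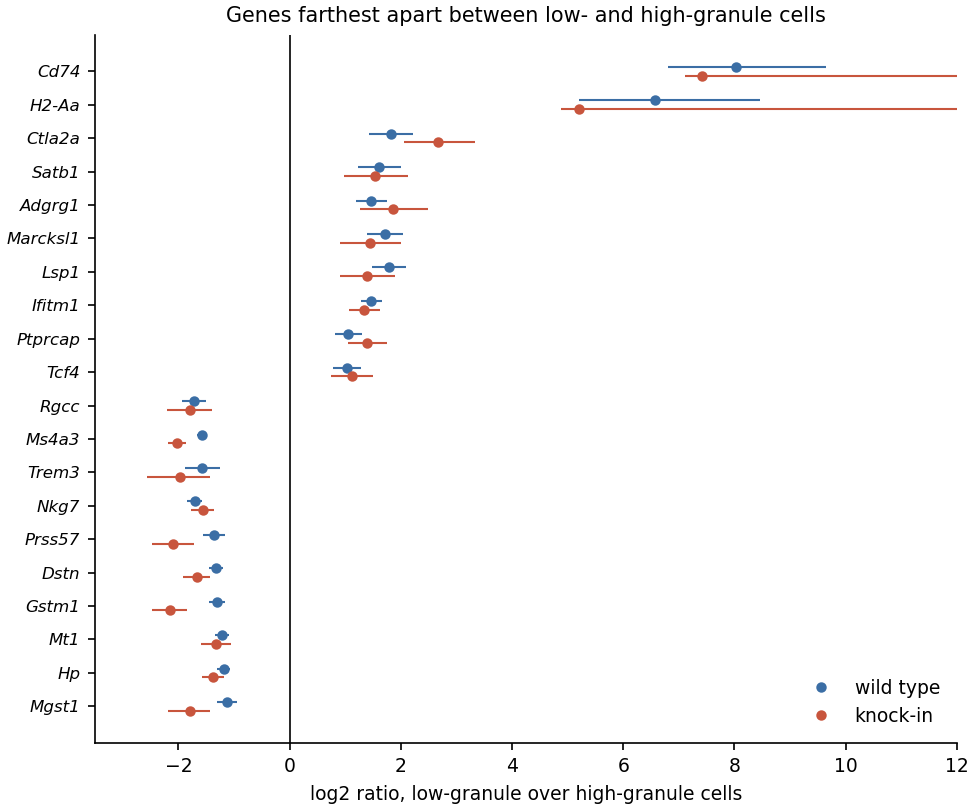
Log2 ratios of low-granule over high-granule cells with exact 95% counting intervals for the 10 genes farthest apart in each direction, in wild type and the knock-in. Every gene shown lies on the same side of 0 in both libraries. The knock-in intervals of Cd74 and H2-Aa have no upper end because high-granule cells held 0 UMIs, and their points use a floor of 3 UMIs.

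Between genotypes, 8005 genes had at least 50 UMIs over the low-granule cells of both libraries. Of these, 70 were at least 2-fold higher in the knock-in, or 0.874%, and 134 were at least 2-fold lower, or 1.67%. The median ratio over all 8005 was 0.04. All 70 and 130 of the 134 had counting intervals that left out 0. Over all genes tested, counting intervals lay above 0 for 12.5% and below 0 for 8.63%, which the counts of the lists below can be read against. Higher genes were 34.3% of the calls, 44.6% when every cell was given the same weight (169 higher and 210 lower) and 25.8% under TMM (57 higher and 164 lower). With the cells of other lineages left out, 55 were higher and 129 lower. With every cell thinned to 2000 UMIs the counts were 31 and 80, in fewer tested genes.

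Of the 10 genes named for standing higher in the knock-in, 3 had most of their knock-in UMIs in a few cells. Igkc, the immunoglobulin kappa constant region (chromosome 6, 70726435 to 70726966), had 0 UMIs in wild type and 165 in the knock-in, all in the 19 cells with B lineage genes. Its ratio was 7.18 with wild type put at the floor of 3 UMIs, and its interval ran upward from 6.87. Hbb-bs, an adult beta globin, had 10 and 215 UMIs, found in 9 wild-type and 37 knock-in cells. In the knock-in, 3 cells held 181 of them. Left to the cells without genes of other lineages were 9 and 27 UMIs, a ratio of 3.04 (1.91 to 4.32). Hbb-bs was also higher in the other knock-in cells, with 6 and 837 UMIs in high-granule cells, a ratio of 8.75, and a ratio of 4.24 in all other filtered cells. The globins Hba-a1, Hba-a2 and Hbb-bt had ratios between 3.57 and 4.26 in those other filtered cells. Pf4 had 24 and 138 UMIs. In the knock-in, 3 cells held 134 of them, and the ratio of 3.93 turned to -0.74 (-2.49 to 0.68) without the cells of other lineages. Prss34, a basophil protease (chromosome 17, 25298394 to 25300165), showed the same in wild type, with 449 UMIs against 0 in the knock-in, of which 447 lay in 3 cells. Without the cells of other lineages 4 and 0 UMIs remained. Igkc, Hbb-bs, Pf4 and Prss34 were themselves among the genes that picked those cells. The loss of their UMIs without those cells thus follows from the choice and is not a check of it.

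Other genes that stood higher in the knock-in were spread over many cells. Ncf4, a subunit of the phagocyte NADPH oxidase (chromosome 15, 78244801 to 78262580), was found in 282 wild-type and 150 knock-in cells, at 91.8 and 194 CPM, a ratio of 1.08 (0.88 to 1.28). In high-granule cells its ratio was 0.98 and in all other filtered cells 0.71. None of the other members of the 7-gene oxidase list was 2-fold apart. Mndal, an interferon-inducible nuclear protein of the Ifi200 family (chromosome 1, 173849126 to 173942491), stood at 97.9 and 203 CPM, a ratio of 1.06 (0.86 to 1.25). Ifi203 of that family stood at 83.0 and 135 CPM and Ifi209 at 80.7 and 61.1 CPM. Of members with fewer UMIs, Ifi202b had 0 in wild type and 45 in the knock-in, Ifi204 had 11 and 27, and Ifi211 had 15 and 19. These had counting intervals above 0. Ifi205 had 11 and 0 UMIs and Ifi207 had 13 and 3, with intervals that held 0. Ifi209 was the only member with an interval below 0. Close copies within this family can share reads, and how such reads were counted is not given in the sources used here.

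Cdk2ap1, an inhibitor of the kinase CDK2, stood at 55.6 and 118.6 CPM, a ratio of 1.09 (0.84 to 1.35). Ttc3, a ubiquitin ligase, stood at 46.8 and 104 CPM, and Amd1, an enzyme of polyamine synthesis, at 23.9 and 51.3 CPM. With cells thinned to 2000 UMIs these 2 genes were under 2-fold, with ratios of 0.73 for Ttc3 and 0.68 for Amd1, and Cdk2ap1 had 0.88. Aggf1, an angiogenic factor, stood at 28.2 and 60.6 CPM, and Ocel1 at 23.7 and 63.7 CPM, a ratio of 1.43 (1.05 to 1.80). High-granule cells had ratios of 1.47 for Ocel1, 1.23 for Ttc3 and 1.17 for Cdk2ap1, and all other filtered cells had 1.64, 0.62 and 0.98. These genes stood higher in the knock-in outside the low-granule cells too.

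The genes that stood lowest in the knock-in were also low in its other cells. Apoe, a lipid carrier (chromosome 7, 19696109 to 19699188), had 290 and 4 UMIs, 56.8 and 2.07 CPM, a ratio of -4.78 (-6.66 to -3.41). Its ratio was -4.03 in high-granule and -4.01 in all other filtered cells. Gm42047, a long non-coding RNA (chromosome 8, 121833247 to 121841178), had 115 and 0 UMIs. Its ratio was -3.86 against the floor, and its interval ran downward from -3.54. The replication-dependent histone H2A genes Hist1h2ap and Hist1h2ae had levels of 733 and 53.9 CPM for the former and 518 and 127 CPM for the latter. Gm10076, annotated as a non-coding RNA, stood at 412.5 and 54.4 CPM.

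Apobec3, a cytidine deaminase that restricts retroviruses, stood at 180.1 and 41.9 CPM, a ratio of -2.10 (-2.45 to -1.77). Usp50, annotated as a ubiquitin peptidase, stood at 76.8 and 14.0 CPM. Gstp1, a glutathione transferase, stood at 38.6 and 4.66 CPM, a ratio of -3.05 (-4.20 to -2.10). The ratios in all other filtered cells were -1.92 for Apobec3, -2.60 for Usp50, -2.91 for Gstp1 and -3.87 for Hist1h2ap. Several of these genes have near copies in the genome, and reads that fit more than 1 copy cannot be followed in summed counts. Their direction was the same under all 15 alternatives run for each of them.

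Ratios also moved with the length of a gene's longest annotated transcript. Of 187 tested genes under 750 bases, 11.8% were 2-fold lower in the knock-in and the median ratio was -0.09. Of 1117 genes of 6000 bases or more, 1.07% were 2-fold lower and the median was 0.14. The median ratios of the same bins were -0.10 and 0.22 in high-granule cells and -0.07 and 0.14 in all other filtered cells. The part of length in the results below was not tested.

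MHC class I genes stood lower in knock-in low-granule cells. These genes present peptides to T cells on the surface of nearly all nucleated cells. Of 15 members, 14 had 50 UMIs or more, 2 were 2-fold lower and none higher, with counting intervals below 0 for 9 and above 0 for 1. Over all genes tested 1.67% were 2-fold lower. The median ratio was -0.49, beside 0.04 for all genes tested. B2m, the shared light chain (chromosome 2, 122147686 to 122153083), stood at 817 CPM (wild type) and 503 CPM (knock-in), a ratio of -0.70 (-0.80 to -0.60). Of the heavy chains, H2-D1 (chromosome 17, 35262730 to 35267499) stood at 801 and 491 CPM, a ratio of -0.71 (-0.81 to -0.60), and H2-K1 (chromosome 17, 33996017 to 34000347) at 753 and 506 CPM, a ratio of -0.57 (-0.68 to -0.47).

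Non-classical heavy chains showed the widest gaps of the list. H2-Q7 stood at 48.2 and 20.2 CPM, a ratio of -1.25 (-1.78 to -0.76), and H2-Q6 at 24.1 and 5.70 CPM, a ratio of -2.08 (-3.12 to -1.19). With every cell given the same weight these ratios were -0.38 and -0.51, and without the cells of other lineages -1.84 and -3.44. The H2-Q genes are near copies of each other, so their single values are uncertain. Genes that make and load the peptides differed less. Psmb8, a subunit of the immunoproteasome, stood at 664 and 693 CPM, and the transporter genes Tap1 and Tap2 had ratios of -0.16 (-0.43 to 0.11) and 0.16 (-0.12 to 0.43). Tapbp, which tethers class I molecules to the transporter, had a ratio of -0.41 (-0.74 to -0.09), and H2-T23 was higher, at 70.5 and 87.5 CPM.

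The class I list was low in the other cells of the knock-in as well, with a median of -0.72 in high-granule cells and -0.31 in all other filtered cells. Without the cells of other lineages the low-granule median was -0.53. Thinning every cell to 2000 UMIs before gating brought it to -0.12. Knock-in low-granule cells were shallower than wild-type ones, and the part of depth in the difference was not tested.

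Promoters of class I heavy chains are shown because these genes stood low together. Of 13 members matched to RefSeq promoters, 3 held the bases shown in capitals, a kappa B sequence bound by NF-kappa B factors, against 0.0304% of all 32851 promoters (10 promoters). The 3 are among the 5 heavy chain genes named above and among those 10 promoters. Their sequences are alike beyond the match, so they are not independent finds. The sequences read along the strand of each gene. The interferon response element, GAAA and GAAA apart by 2 bases, was found in 3 of the 13 and in 2.98% of all promoters.
H2-K1 (chr17:34000399-34000498, minus strand): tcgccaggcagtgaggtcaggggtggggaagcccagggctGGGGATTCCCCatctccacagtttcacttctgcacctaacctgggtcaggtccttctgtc
H2-D1 (chr17:35262914-35262943, plus strand): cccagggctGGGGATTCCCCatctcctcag
H2-Q6 (chr17:35424637-35424736, plus strand): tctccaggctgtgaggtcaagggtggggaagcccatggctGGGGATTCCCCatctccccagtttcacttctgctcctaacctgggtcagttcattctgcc
The match began 111 bases before the RefSeq start of H2-K1, 171 before that of H2-D1 and 173 before that of H2-Q6. The H2-D1 match lies inside the gene's GENCODE span given above, with an annotated exon near it. These are matches of letters and carry no measurement of a bound factor.

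Immediate early genes, which cells switch on within minutes of a stimulus, stood lower in the knock-in. Of 20 members with 50 UMIs or more, 3 were 2-fold lower and none higher, beside 1.67% of all genes tested for 2-fold lower. Counting intervals lay below 0 for 12 and above 0 for 1. The median ratio was -0.27. Klf2, a factor of quiescence and migration (chromosome 8, 72319033 to 72321656), stood at 80.7 and 29.5 CPM, a ratio of -1.45 (-1.88 to -1.05). Klf6 stood at 84.0 and 37.8 CPM, a ratio of -1.15 (-1.53 to -0.79), and Dusp1, a phosphatase that shuts off MAP kinases, at 59.9 and 24.9 CPM, a ratio of -1.27 (-1.74 to -0.83). None of the 3 was 2-fold lower under every alternative: Klf2 had a ratio of -0.61 with every cell weighted equally, and with cells thinned to 2000 UMIs Klf6 had -0.53 and Dusp1 -0.70. These 3 genes were found in 194, 187 and 176 wild-type cells and in 41, 48 and 39 knock-in cells.

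Of the AP-1 genes, Fos stood at 459 and 239.7 CPM, a ratio of -0.94 (-1.08 to -0.79), while Jun stood at 434 and 385 CPM, a ratio of -0.17 (-0.29 to -0.05). Jund had a ratio of -0.43 (-0.59 to -0.27), Ier2 of -0.19 (-0.38 to 0.00), and Myc of 0.25 (0.04 to 0.46). The list did not keep its side in every cell type: its median was -0.45 in high-granule cells and 0.13 in all other filtered cells. Whether those medians differ beyond chance was not tested. Thinned to 2000 UMIs, the low-granule median was -0.03. Immediate early genes also respond to tissue dissociation, and handling of the 2 libraries cannot be told apart from genotype.

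**Figure D5:**
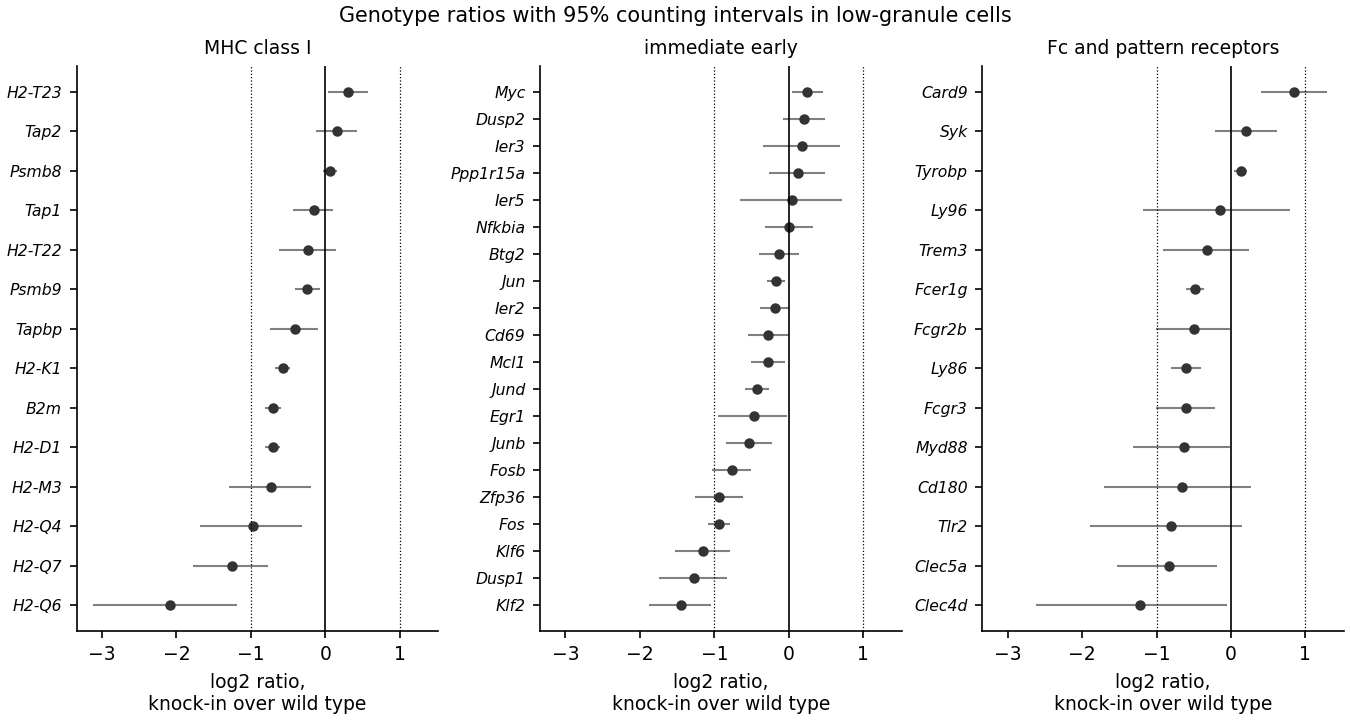
Log2 ratios of knock-in over wild type with exact 95% counting intervals in low-granule cells, for members of 3 gene lists with 50 UMIs or more. Solid lines mark 0 and dotted lines a 2-fold difference. H2-Q6 and H2-Q7 among MHC class I genes, Klf2, Klf6 and Dusp1 among immediate early genes, and Clec4d among receptors lie past the lower dotted line, and no member lies past the upper one.

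The transcription factors of myeloid fate were mostly level between the libraries. Of 23 with 50 UMIs or more, 2 were 2-fold lower and none higher, beside 1.67% and 0.874% of all genes tested. The median ratio was 0.09. Irf8 stood at 513 CPM (wild type) and 560 CPM (knock-in), a ratio of 0.13 (0.02 to 0.23) for a gene of the gate. Zeb2, which works in monocyte and dendritic development, stood at 318 and 313 CPM, Lmo2, a bridging factor of progenitors, at 263 and 274 CPM, and Mef2c, a factor of lymphoid and monocyte fate, at 249.8 and 313 CPM.

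Klf4, a factor of monocyte differentiation (chromosome 4, 55527143 to 55532466), was an exception. It had 227 and 31 UMIs, 44.45 and 16.05 CPM, a ratio of -1.47 (-2.06 to -0.92). It was found in 26.5% (22.5 to 30.8%) of the low-granule cells in wild type and in 8.48% (5.18 to 12.9%) in the knock-in, against 5.16% and 1.02% of Car1-positive cells. Thinned to 2000 UMIs these shares were 7.78% and 2.74%, against 1.58% and 0.511%. In high-granule cells Klf4 stood at 30.3 and 28.6 CPM, a ratio of -0.09, and in all other filtered cells at 7.99 and 2.60 CPM, a ratio of -1.62. Across bands 1 to 4 the wild-type level was 58.6, 36.1, 38.4 and 51.5 CPM and the knock-in level 8.91, 17.85, 18.9 and 17.8 CPM, so wild type was higher in each band. The knock-in bands share the 31 UMIs, so each of these levels rests on few UMIs, and none is given an interval. The ratio was between -1.95 and -1.29 over the alternatives. The difference between the low-granule and high-granule ratios was not tested.

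Id2 was the other factor at least 2-fold lower, with 71 and 7 UMIs, a ratio of -1.94 (-3.31 to -0.82). Of the 71 UMIs, 57 lay in the 12 wild-type cells with MHC class II genes, and without the cells of other lineages the ratio was 0.46. Cebpb, a factor of monocyte survival, stood at 139 and 85.4 CPM, a ratio of -0.70 (-0.95 to -0.45), and its ratios in high-granule and all other filtered cells were -0.61 and -0.55.

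Genes of the monocyte surface showed no 2-fold difference. Of 24 with 50 UMIs or more, counting intervals lay below 0 for 9 and above 0 for 1, and the median ratio was -0.11. Plac8, a small cysteine-rich protein of myeloid cells, stood at 3060.3 and 2987 CPM, and Ly6e at 975 and 957 CPM. Ly6c2 stood at 704.5 and 489.8 CPM, a ratio of -0.52 (-0.63 to -0.42). Its ratio was -2.64 in band 1, -0.75 in band 2, -0.24 in band 3 and -0.12 in band 4, and 0.14 in high-granule cells. Ccr2, the receptor that draws monocytes out of marrow, stood at 90.1 CPM in both libraries, a ratio of 0.00 (-0.26 to 0.26). Csf1r had a ratio of -0.03 (-0.34 to 0.27). Of 20 cytokine receptors with 50 UMIs or more, none was 2-fold apart, and the median was 0.04.

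Receptors for antibodies and microbial patterns leaned lower in the knock-in. Of 14 with 50 UMIs or more, 1 was 2-fold lower (Clec4d, 43 and 7 UMIs), beside 1.67% of all genes tested. Counting intervals lay below 0 for 7 and above 0 for 2, and the median ratio was -0.55. Fcer1g, the signalling chain of Fc receptors, stood at 484 and 347 CPM, a ratio of -0.48 (-0.61 to -0.36). Fcgr3, a receptor for IgG, stood at 55.0 and 36.25 CPM, a ratio of -0.60. Ly86, the partner of the receptor Cd180 and a gene of the gate, stood at 195 and 128 CPM, a ratio of -0.60 (-0.81 to -0.40). Its partner Cd180 had 50 and 12 UMIs. Tyrobp went the other way with a ratio of 0.13 (0.04 to 0.22), and so did Card9, an adaptor of C-type lectin receptors, at 20.95 and 37.8 CPM, a ratio of 0.85 (0.40 to 1.29). The list's median was -0.15 in high-granule and -0.11 in all other filtered cells.

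Interferon response genes held no common direction, with 8 of 16 above 0 and 8 below and a median of 0.03. The 3 that were 2-fold lower, beside 1.67% of all genes tested, were Bst2, Ifi35 and Oas1a. Bst2, which tethers enveloped viruses to the cell (chromosome 8, 71534255 to 71537456), stood at 159.8 and 47.6 CPM, a ratio of -1.75 (-2.07 to -1.43), and was as low in high-granule cells (-2.00) and all other filtered cells (-1.42). Ifi35 had a ratio of -1.07 (-1.60 to -0.58), and -0.06 and -0.02 in those other cells. With cells thinned to 2000 UMIs its ratio was -0.25, and it was also under 2-fold with likely doublets removed (-0.99) and with every cell weighted equally (-0.93). Ifitm2, an antiviral membrane protein, stood at 686.5 and 729 CPM, and Ifitm3 at 529.6 and 432 CPM.

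Cell division genes did not separate the libraries. None of 30 S phase genes and none of 29 G2 and M phase genes was 2-fold apart, and their medians were 0.06 and 0.09. Dut, which keeps uracil out of DNA, stood at 393 and 358 CPM, and Mcm3, a replication helicase subunit, at 204 and 261.5 CPM. Hmgb2, a chromatin protein of dividing cells, stood at 1917 and 1386 CPM, and Top2a, which untangles DNA, at 336 and 409 CPM. These sums count transcripts and give no share of cycling cells.

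Inhibitors of the cell cycle held an exception. Cdkn1a, which encodes the inhibitor p21 (chromosome 17, 29090976 to 29100727), had 78 and 76 UMIs, 15.3 and 39.35 CPM, a ratio of 1.37 (0.89 to 1.84). Its ratio was 1.32 in high-granule and 1.29 in all other filtered cells. It was 2-fold higher in low-granule than high-granule cells of both libraries, with low over high ratios of 1.52 and 1.57. Rbl2, a relative of the retinoblastoma protein, had 65 and 50 UMIs, a ratio of 1.02 (0.46 to 1.58), and 0.02 in high-granule cells. The other 12 of the 14 measured p53 targets and inhibitors, such as Bax at 144 and 136 CPM, were not 2-fold apart. The list's median was 0.04, and 0.874% of all genes tested were 2-fold higher. Of 15 genes of survival and death none was 2-fold apart. Bcl2, which blocks apoptosis, stood at 123 and 181 CPM, a ratio of 0.56 (0.37 to 0.75).

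The list of stem and early progenitor genes leaned slightly higher in the knock-in. None of 20 was 2-fold apart, the median ratio was 0.27, and counting intervals lay above 0 for 6 and below 0 for 1. Sox4 stood at 273 and 394 CPM, a ratio of 0.53 (0.40 to 0.66), and Cd34 at 259.8 and 317 CPM, a ratio of 0.29 (0.15 to 0.43). Angpt1 had a ratio of 0.85 (0.43 to 1.27) and Egfl7 of 0.50 (0.23 to 0.77). Adgrg1 went the other way, at 75.4 CPM (wild type) and 57.5 CPM (knock-in). Ly6a, a member with few UMIs, had a ratio of -0.24 (-1.15 to 0.60). Without the cells of other lineages the Ly6a ratio was -2.54 (-4.87 to -0.91). With the 4 bands weighted equally in both libraries the list's median was 0.13. Sox4 stood higher in the knock-in cells of every band.

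Of 13 glycolysis genes only Eno1 was 2-fold apart, beside 1.67% of all genes tested for 2-fold lower. Eno1 stood at 193 and 79.2 CPM, a ratio of -1.28 (-1.54 to -1.04). It was as low in high-granule (-1.22) and all other filtered cells (-1.27). Gapdh stood at 2025 and 2049 CPM. Of 22 genes of the cytoskeleton and calcium binding none was 2-fold apart, but counting intervals lay below 0 for 12 and above 0 for 2, and the median ratio was -0.16. Tmsb10, an actin-binding peptide, stood at 1473 and 851 CPM, a ratio of -0.79 (-0.87 to -0.71). S100a6, a calcium-binding protein, had a ratio of -0.86 and Pfn1, profilin, of -0.36, while Actb, beta actin, had 0.10. Of 16 stress and unfolded protein response genes none was 2-fold apart, and their median was 0.07. Of 22 lysosome and antigen processing genes none was 2-fold apart. Cst3, an inhibitor of cathepsins, stood at 1184 and 911 CPM, a ratio of -0.38 (-0.46 to -0.30). Of its 6046 wild-type UMIs 1250 lay in the 12 cells with MHC class II genes, and without the cells of other lineages its ratio was -0.02.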

How the data were processed

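Single cells of sorted bone marrow were captured on the 10x Chromium platform, 1 library per genotype. The authors deposited whole-number UMI counts of each gene in each cell, made with Cell Ranger 3.1.0 per the file headers and on mm10 per the submitters' processing notes. Barcodes needed 500 genes, 1000 UMIs and no more than 10% of UMIs from mitochondrial genes. The gate given in the report was applied to UMIs per 10000 (CP10k). Counts were summed per library and cell group and scaled to CPM. Ratios carry exact conditional binomial 95% intervals, and shares exact Clopper-Pearson ones; both cover counting error only. A library at 0 UMIs was put at a floor of 3. A gene was called 2-fold apart with at least 50 UMIs over the groups compared (in each library, for low over high). No test across samples was made.

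The members and the 34 gene lists were chosen with earlier results of these data known. Genes were named as follows: the gate, granule and marker genes, Gata1 and Gata2. Between genotypes, the 10 genes per direction with the interval farthest from 0 were named. Between granule classes, the 10 per direction by the smaller of both libraries' ratios were named. Both needed 100 UMIs in the higher group. Of these genes, 1 is not reported here. Each list gave its members richest in UMIs (4 at most) and those 2-fold apart with 100 UMIs. Mitochondrial, ribosomal, sex-linked marker and gate genes were left out of the rankings. Other genes named, among them the genes of the bands, Csf1r, Ccr2, Cebpb, Card9, Clec4d, Cd180, Fcgr3, Angpt1, Egfl7, Cat, Runx2, S100a6, Hba-a1, Hba-a2, Hbb-bt, Cdkn1a, Rbl2, Oas1a, Bcl2, Tap1, Tap2, Tapbp, H2-T23, Myc, Ifi203 and Ifi209, were chosen after their values were seen.

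Coordinates are GENCODE M21 on mm10, which held 30934 of 31053 gene IDs, and promoters are RefSeq's on GRCm38.p6. Doublets were kept, and removing the top 5% of Scrublet scores was an alternative, as was TMM scaling (edgeR 4.0.16). The scripts (Python 3.11.15, numpy 2.4.6, scipy 1.17.1, pandas 2.3.3, scanpy 1.11.5, R 4.3.3) were tested on simulated data.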

Additional observations from a re-analysis of the deposited data

How the results depend on the processing

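The share of low-granule cells kept its direction under every alternative run. Its log2 ratio of -1.05 moved to -1.34 with a monocyte gate of 10 CP10k, -0.58 with cells thinned to 2000 UMIs, -1.30 with a granule median within each library and -0.69 with narrower granule classes (outer tertiles). The low-granule share of gated cells (0.24) was -0.0036 with a median within each library, which sets it by construction, and 0.61 with the tertiles. The genes 2-fold higher in knock-in low-granule monocyte cells (70) and those lower (134) numbered 31 and 80 with thinned cells, 169 and 210 with every cell weighted equally, 21 and 75 with a minimum of 100 UMIs, 2247 and 552 with a minimum of 1 UMI, 37 and 209 without the 3 cells with the most UMIs of each gene, and 408 and 436 at a fold of 1.5. Genes higher in low-granule cells of both libraries (47) numbered 28 with a stricter cell filter, 16 with the gate of 10 CP10k, 81 without the Dntt and Flt3 limit, 99 with thinned cells, 79 with the tertiles, 26 with a minimum of 100 UMIs and 372 with 1 UMI. Those lower (22) numbered 44 with the tertiles and 186 with a minimum of 1 UMI. The counts at a minimum of 1 UMI include genes that only the floor of 3 UMIs puts on a side. Gstt1, with 1 UMI in wild type and 0 in the knock-in, had a knock-in over wild type ratio of 2.99 that way. Xcr1, with 0 UMIs in low-granule and 1 in high-granule knock-in cells, had a low over high ratio of 1.55. With thinned cells the medians of MHC class I and immediate early genes were -0.12 and -0.033. At 2000 UMIs the gate of 5 CP10k equals 1 UMI. Pf4 turned to -0.22 with likely doublets removed, -0.75 with thinned cells, -0.60 without its top 3 cells and -0.74 without cells of other lineages. Leaving out its top cells or the cells of other lineages removes cells picked by Pf4 itself. Apart from what the values above show, the cause was not tested. Leaving out the cells of other lineages was chosen after seeing the data. No paired analysis was possible because each genotype had 1 library.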
